A study of Mus musculus with 4 samples.

Results

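The 10 genes described here encode proteins of cartilage matrix, or regulate the cells that make them. They are Acan, Comp, Matn1, Matn3, Hapln1, Sox9, Chad, Ucma, Epyc and Cytl1. They were chosen by name, with earlier results of these data known, and every gene probe of the array whose target transcript carries one of these symbols was taken. That gave 10 probes, 1 per gene, of 39429 gene probes on the array, and all 10 genes were among the 25679 genes tested. Each array compared total RNA of a middle ear extract labelled DEP_ear, in the red dye Cy5, with one labelled CON_ear, in the green dye Cy3. There were 4 such arrays, so each group had 4 extracts. The mice of the study were male BALB/c, 6 to 10 weeks old. Exposure was by inhalation of diesel exhaust particles (DEP), daily over 5 days for 1 h at a time, and the temporal bone area with the middle ear was taken at killing on day 14. The treatments in the labels are DEP and none, both listed under Cy5, so taking none as that of the control is an inference. The study used 9 mice, and how many stood behind an extract is not given in the sources used here. Where nothing says that extracts came from separate animals, the p-values measure only the spread between these extracts, although the labels call them biological replicates.

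Cartilage is a matrix of collagen fibrils filled with aggrecan, a large proteoglycan whose chondroitin sulfate chains hold water. Hapln1, the link protein, fixes aggrecan to hyaluronan, while Comp and the matrilins Matn1 and Matn3 bridge collagen fibrils and proteoglycans. Chad (chondroadherin) and Epyc (epiphycan) are leucine-rich repeat proteins of the matrix, and Ucma and Cytl1 are small proteins secreted by chondrocytes. Sox9 is the transcription factor that chondrocytes need, and it switches on Acan, Comp, Matn1, Hapln1 and the cartilage collagens. In the ear, cartilage is found in the outer ear, in the wall of the auditory tube, at the joints of the ossicles and as remnants in the temporal bone.

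The 8 genes Acan, Comp, Hapln1, Sox9, Chad, Ucma, Epyc and Cytl1 gave signals well above background with Cy5 and with Cy3 on each of the 4 arrays, which is called measured in full below. Matn1 and Matn3 did not. Ratios are log2 of the DEP channel over the control channel. That direction rests on the source names of the samples. For Esr1, Chrm1 and Sos1, the genes for which this was checked, it is opposite to the direction in the study's own account, which leaves the sign of every ratio here in doubt. The mean ratio of Esr1, measured in full, was 0.46 ± 0.23 (SD, n = 4). Chrm1, at -1.21 ± 1.35, and Sos1, at 1.06 ± 0.59, were not measured in full. No array had the dyes the other way round, so dye bias and exposure cannot be told apart. In extracts of a whole tissue, fewer cells of a type and less RNA per cell cannot be told apart either.

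None of the cartilage genes passed the test. After Benjamini-Hochberg adjustment of limma's p-values, 0 of the 10 genes had a p under 0.05, against 0% of all genes tested. An unadjusted p under 0.05 was found for 1 of 10 (Matn3), against 18.7% of all genes, and for 0 of the 8 genes measured in full, against 12.6% of genes so measured. A mean ratio past 2-fold was found for Matn3 alone, 1 of 10, against 6.74% of all genes, and for 0 of the 8 genes measured in full, against 3.15%. The 95% interval of the mean lay within 2-fold in both directions for 7 of these 8 genes, the exception being Sox9. The share of all genes with such an interval was not counted. The ratio kept 1 sign on all 4 arrays for 2 of the 8, Chad being higher and Comp lower in the DEP channel, against 26.1% of genes measured in full. The signals of the 4 DEP extracts and of the 4 control extracts overlapped for all 10 genes after normalization between arrays. How many of all genes overlapped in this way was not counted, so it cannot be read as a trait of the cartilage genes.

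**Figure D1:**
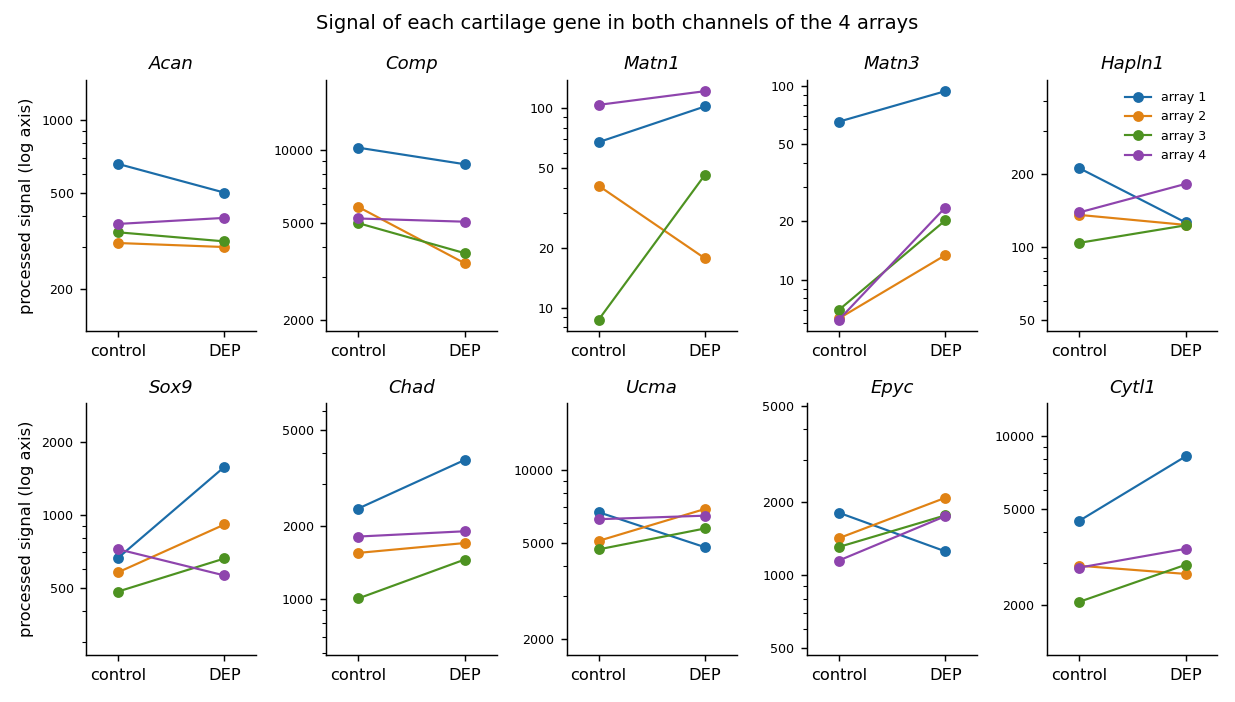
Processed signal (arbitrary units, log axis) of each of the 10 cartilage genes in the control and DEP channel, with a line joining the 2 channels of each array. The lines slope up on every array for Chad and Matn3 and down on every array for Comp, and the lowest Matn3 signals, between 6.21 and 6.98 in the control channel of arrays 2 to 4, were not well above background.

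Sox9, the regulator among the 10, differed most between arrays of the genes measured in full. Its signal was 1578, 912, 661 and 562 in the DEP channel of arrays 1 to 4, against 664, 579, 483 and 721 in the control channel. The ratio was 1.25, 0.66, 0.45 and -0.36. Sox9 was thus higher in the DEP channel of arrays 1, 2 and 3 and lower in that of array 4, and array 1 gave the single ratio past 2-fold among the 32 of the genes measured in full. The mean was 0.50 ± 0.66 (SD, n = 4), with a 95% interval from -0.21 to 1.21 and an adjusted p of 0.381 in limma. Without array 1 it was 0.25, and without array 4 it was 0.79. The array carries the Sox9 probe in 10 spots, whose ratios had an SD between 0.035 and 0.051 within an array, against 0.66 between arrays. The spots of an array share its extracts and hybridization, so the smaller SD covers noise between spots alone.

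Some skin genes were, like Sox9, highest on array 1 and lowest on array 4, a comparison chosen after their values were seen. Krt14, a keratin of basal epidermis, had ratios of 2.95, 0.57, 0.92 and -1.80 on arrays 1 to 4. Krt5, its partner keratin, had 2.17, 0.35, 0.08 and -1.24. Lor, a protein of the cornified layer, had 3.04, 0.31, 0.02 and -0.12. The adipocyte genes Adipoq, Plin1 and Fabp4 of the same list went the other way between these arrays, at -0.27, -0.46 and -1.24 on array 1 and 0.97, 0.84 and 0.70 on array 4. The list of adipocyte and skin markers, to which they belong, had all 6 genes measured in full, 5 with a mean above 0 and 0 with an unadjusted p under 0.05, beside 12.6% of genes measured in full. Its summed signal ranged from 100621 to 334524 in the DEP channel and from 98504 to 156052 in the control channel. The part of skin in the Sox9 ratios was not tested. Col2a1, the main collagen of cartilage and a target of Sox9, which is shown for comparison and was also picked after its values were seen, had ratios of -0.43, 0.49, 0.15 and 0.23, lowest where Sox9 was highest. Of the 65 genes of the cartilage lists measured in full, 35 were likewise lowest on array 1, while 5 were highest on array 1 and lowest on array 4, namely Sox9, Chad, B3galt6, Xylt2 and Slc26a2, a count made after seeing the values. The share of all genes with either order was not counted, so neither order can be read as particular to these genes. Slc26a2, the sulfate transporter of chondrocytes, had 1.79, 0.52, 0.32 and -0.66, and Xylt2, which starts the glycosaminoglycan linker, ran like it, down to -0.54 on array 4.

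**Figure D2:**
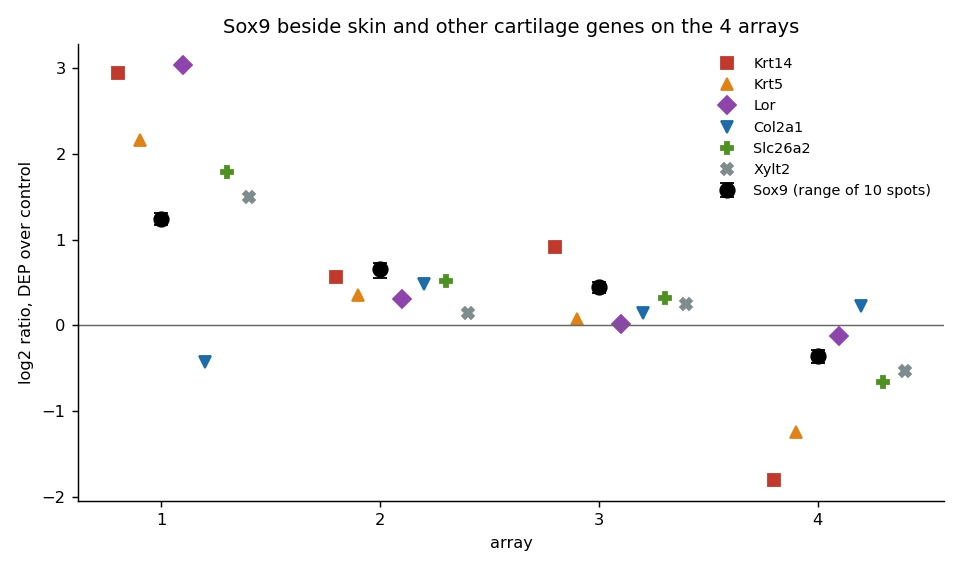
Log2 ratio of the DEP over the control channel on each of the 4 arrays for Sox9 (mean of 10 spots, bars from the lowest to the highest spot), the skin genes Krt14, Krt5 and Lor, and the cartilage list genes Col2a1, Slc26a2 and Xylt2. Sox9, the 3 skin genes, Slc26a2 and Xylt2 are highest on array 1 (1.25 for Sox9) and lowest on array 4 (-0.36), while Col2a1 is lowest on array 1 (-0.43).

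Acan, which encodes aggrecan, differed little between channels. Its signal was 501, 299, 316 and 395 in the DEP channel and 659, 311, 344 and 373 in the control channel of arrays 1 to 4. The ratio, at -0.39, -0.06, -0.12 and 0.08, was below 0 on 3 of 4 arrays and averaged -0.12 ± 0.20 (SD, n = 4), with a 95% interval from -0.44 to 0.20 and an adjusted p of 0.613. Leaving out 1 array moved it to between -0.19 (without array 4) and -0.032 (without array 1). Hapln1 turned with the array. Its signal was 126, 124, 123 and 182 in the DEP channel and 212, 136, 104 and 139 in the control channel. Array 1 had the lowest Hapln1 ratio, -0.74, followed by -0.14 on array 2, 0.24 on array 3 and 0.39 on array 4. The mean was -0.06 ± 0.51 (SD, n = 4; 95% interval -0.63 to 0.50; adjusted p 0.892), and it was 0.16 without array 1.

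Comp was lower in the DEP channel of every array. The DEP signals were 8768, 3424, 3768 and 5081, against 10259, 5844, 5010 and 5237 in the control channel. The Comp ratio was -0.23, -0.77, -0.41 and -0.04, which ranges from near equality on array 4 to the largest fall on array 2. Its mean was -0.36 ± 0.31 (SD, n = 4), the 95% interval ran from -0.76 to 0.04, and the adjusted p was 0.297. Without array 2 the Comp mean was -0.23. The direction of Acan and Comp depended on the scaling: with normexp background correction and each array centred on its median, their means were 0.07 and 0.09. That setting moved the median of all genes measured in full from 0.03 to 0.26, and both genes lay below that median.

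The matrilins were at background on some arrays, so that the size of their change was not measured on all 4. Matn1, a matrilin of cartilage outside joint surfaces, was well above background on arrays 1, 3 and 4 in the DEP channel and on arrays 1, 2 and 4 in the control channel. Its signal was 102, 17.7, 46.5 and 122 in the DEP channel and 67.7, 41.0, 8.73 and 104 in the control channel. The ratio was 0.59 and 0.23 on arrays 1 and 4, where both channels were measured, and -1.21 and 2.41 on arrays 2 and 3, where 1 channel was at background. The largest ratios of Matn1 thus came from the arrays where it was not measured in both channels, and the adjusted p over all 4 was 0.657.

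Matn3, a matrilin of growth plate and other cartilage, had the largest mean ratio of the 10 genes. Its DEP signal was 94.3, 13.4, 20.3 and 23.6, and its control signal was 65.6, 6.31, 6.98 and 6.21. Only array 1 had both channels well above background, and there the Matn3 ratio was 0.52. The ratios on arrays 2 to 4, at 1.09, 1.54 and 1.93, rest on control signals not above background, and on array 2 the DEP signal was not above it either. These 3 ratios are therefore no measured sizes. The mean over the 4 arrays, which rests on them, was 1.27 ± 0.60 (SD, n = 4), with an adjusted p of 0.139. It was 0.26 with normexp correction and loess, and 0.09 with normexp correction and median centring, so neither kept it past 2-fold.

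**Figure D3:**
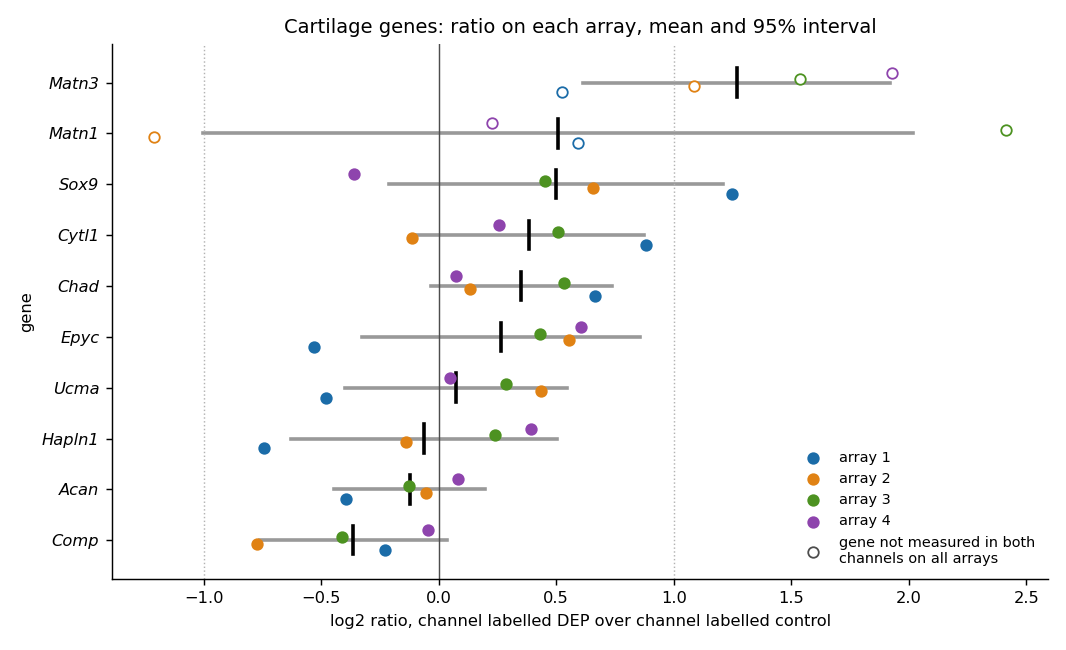
Log2 ratio of the DEP over the control channel for the 10 cartilage genes on each of the 4 arrays (points), with the mean (black tick) and its 95% interval from limma (grey line). Open points mark Matn1 and Matn3, which were not measured in full, and dotted lines mark 2-fold. Of the filled points, only Sox9 on array 1 (1.25) lies past 2-fold, and Chad and Comp alone keep 1 side of 0.

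Chad was higher in the DEP channel of every array. The DEP signals were 3753, 1704, 1457 and 1906, against 2366, 1552, 1007 and 1813 in the control channel. Chad's ratio was 0.67, 0.13, 0.53 and 0.07, above 0.5 on arrays 1 and 3 and near 0 on arrays 2 and 4. The mean was 0.35 ± 0.29 (SD, n = 4), with a 95% interval from -0.03 to 0.74 and an adjusted p of 0.296. Chad was also the 1 gene of the 10 that passed the test under any setting. With normexp correction and median centring its mean was 0.73 and its adjusted p in limma 0.0431, beside the median of 0.26 for all genes measured in full and 3569 of 32360 genes, or 11.0%, called in that setting. Over 11 alternatives its adjusted p ranged from 0.0431 to 0.582.

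Cytl1 ran most like Chad. Its signal was 8230, 2698, 2941 and 3423 in the DEP channel and 4464, 2916, 2068 and 2863 in the control channel. Cytl1's ratio was 0.88, -0.11, 0.51 and 0.26, below 0 on array 2 alone, with a mean of 0.38 ± 0.42 (SD, n = 4), a 95% interval from -0.10 to 0.87 and an adjusted p of 0.340. Without array 1 the mean of Cytl1 was 0.22. Over the 8 extracts, Pearson's r of the normalized log2 signals of Chad and Cytl1 was 0.91, the highest of any pair of the genes measured in full. The extracts share 4 arrays, so that r is a description. Their promoters, 250 bases before to 50 bases after the start of the transcript, are shown because the pair ran alike. They were taken from the RefSeq table of assembly GRCm38.p6, Chad at chr11:94564797-94565096 and Cytl1 at chr5:37735269-37735568, both on the plus strand, and are written 5′ to 3′.
Chad: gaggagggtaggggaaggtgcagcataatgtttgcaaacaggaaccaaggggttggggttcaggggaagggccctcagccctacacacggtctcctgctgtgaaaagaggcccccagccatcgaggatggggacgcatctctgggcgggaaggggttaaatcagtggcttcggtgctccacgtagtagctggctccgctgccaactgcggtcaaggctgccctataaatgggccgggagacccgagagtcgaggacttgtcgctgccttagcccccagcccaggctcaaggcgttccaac
Cytl1: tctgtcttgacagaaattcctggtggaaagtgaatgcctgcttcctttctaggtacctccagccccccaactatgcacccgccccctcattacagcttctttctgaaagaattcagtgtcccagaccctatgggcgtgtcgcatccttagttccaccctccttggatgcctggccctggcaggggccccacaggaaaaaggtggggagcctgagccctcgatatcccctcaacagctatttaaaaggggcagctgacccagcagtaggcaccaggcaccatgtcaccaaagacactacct

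The Chad promoter held 61.0% G and C and 13 CpG, against 55.0% and 4 CpG for Cytl1, and the medians over the 32851 promoters of the table were 52.7% and 7 CpG.

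Epyc and Ucma had the second highest correlation of a pair, described after their values. The Epyc signal was 1255, 2086, 1765 and 1752 in the DEP channel and 1810, 1422, 1308 and 1150 in the control channel. Its ratio was -0.53 on array 1 and 0.55, 0.43 and 0.61 on arrays 2 to 4, so array 1 stood apart. The mean of Epyc was 0.27 ± 0.54 (SD, n = 4; 95% interval -0.32 to 0.86; adjusted p 0.557). Leaving out 1 array moved it to between 0.15 (without array 4) and 0.53 (without array 1). Ucma had signals of 4785, 6882, 5719 and 6457 in the DEP channel and 6674, 5083, 4688 and 6244 in the control channel. With ratios of -0.48, 0.44, 0.29 and 0.05, Ucma had the sign of Epyc on all 4 arrays. The Ucma mean was 0.07 ± 0.40 (SD, n = 4), the 95% interval ran from -0.40 to 0.55, and the adjusted p was 0.846. Pearson's r between both genes was 0.83 over the 8 extracts.

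The promoters of this pair are shown for the letters that Sox factors bind. The motifs ACAAAG or ACAATG or AACAAT were searched on both strands, where the last 2 can overlap, in the promoters of the 8 genes that the table holds (Comp and Sox9 are not among them). Of these 8 genes, Epyc alone had a match, while 33.2% of all promoters in the table had at least 1. The table gives Epyc 2 starts, with 3 matches before the first and 6 before the second. The windows are chr10:97643818-97644117 and chr10:97646853-97647152 for Epyc and chr2:4975872-4976171 for Ucma, all on the plus strand of GRCm38.p6, and capitals mark the matches. A match is a description of letters and not a bound site.
Epyc, first start: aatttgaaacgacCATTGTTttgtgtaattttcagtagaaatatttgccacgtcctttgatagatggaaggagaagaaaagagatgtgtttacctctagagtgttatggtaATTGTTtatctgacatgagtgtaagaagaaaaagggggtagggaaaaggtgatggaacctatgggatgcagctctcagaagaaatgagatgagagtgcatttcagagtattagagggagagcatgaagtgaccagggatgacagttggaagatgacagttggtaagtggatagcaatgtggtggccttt
Epyc, second start: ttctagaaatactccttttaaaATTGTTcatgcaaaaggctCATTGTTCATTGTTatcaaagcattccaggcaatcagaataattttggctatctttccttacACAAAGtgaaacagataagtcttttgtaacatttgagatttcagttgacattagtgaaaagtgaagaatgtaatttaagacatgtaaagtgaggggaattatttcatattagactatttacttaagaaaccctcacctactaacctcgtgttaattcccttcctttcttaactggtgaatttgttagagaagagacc
Ucma: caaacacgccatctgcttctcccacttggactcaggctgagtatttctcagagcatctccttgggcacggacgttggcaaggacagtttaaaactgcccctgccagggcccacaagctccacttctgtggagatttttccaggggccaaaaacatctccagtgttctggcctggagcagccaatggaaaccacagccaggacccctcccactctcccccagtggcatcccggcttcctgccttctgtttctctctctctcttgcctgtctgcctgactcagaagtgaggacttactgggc

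The matches of the first Epyc start began at positions -237, -236 and -139 from it, and the first 2 overlap. Epyc's windows were poor in G and C, at 40.3% and 32.3%, against 56.0% for Ucma.

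The 8 genes measured in full did not move as a block. On array 1, 3 were higher and 5 lower in the DEP channel, with a median of -0.31. The split was 4 and 4 on array 2 (median 0.04), 6 and 2 on array 3 (median 0.36) and 6 and 2 on array 4 (median 0.08). For 6 of the 8, the mean was smaller in size than its SD, the exceptions being Chad and Comp, and the share of all genes was not counted. The median of the mean ratios was 0.17 for these 8 genes and 0.31 for all 10, beside 0.03 for all genes tested. Of the 10, 7 were higher and 3 lower in the DEP channel, and 9 and 1 with normexp correction and median centring. Acan and Comp had a Pearson's r of 0.70 over the extracts, as had Hapln1 and Ucma, and Comp and Epyc one of -0.70, so the genes ran in more than 1 way.

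Of 63 other genes of cartilage tested, 0 had an adjusted p under 0.05. With normexp correction and median centring 8 of the 63 had one: Col2a1, Dcn, Trps1, Timp3, Csgalnact2, Chsy1, Papss2 and Ugdh. That stands beside 3569 of 32360 genes in that setting, or 11.0%, genes at background among them. All 8 had a mean above 0, but that setting moved the median of all genes measured in full from 0.03 to 0.26. Without that setting the Timp3 mean was -0.05. Of the 8 cartilage collagens, 3 had a mean above 0 and 5 below, 0 had an unadjusted p under 0.05, beside 18.7% of all genes tested, and the median was -0.05. On array 1 all 7 collagens measured in full were below 0 (median -0.47), beside 51% of all genes so measured. On array 2 none was (median 0.31), beside 40%. The largest mean ratios among them were 0.50 ± 0.84 (SD, n = 4) for Col10a1, -0.23 ± 0.34 for Col9a2 and 0.22 ± 0.60 for Col9a1. Col10a1 is the collagen of hypertrophic cartilage, and Col9a2 and Col9a1 are chains of the collagen on the surface of cartilage fibrils. With normexp correction the Col9a2 mean was -0.18 after loess and 0.15 after median centring. The other Col9a1 probe, well above background only in the control channel of 1 array, gave -0.67. Among 16 other matrix proteins with a probe, 9 were higher and 7 lower, and Chadl, a relative of Chad, was the single one with an unadjusted p under 0.05, again beside 18.7%. Its mean was -0.38 ± 0.18 (SD, n = 4; adjusted p 0.214), opposite in sign to Chad. With normexp correction the Chadl mean was -0.31 after loess and 0.04 after median centring, the latter below the median of 0.26 for all genes measured in full. The other Chadl probe, at background with both dyes on all 4 arrays, gave 0.99.

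Of 13 regulators of chondrocytes, 8 were higher and 5 lower in the DEP channel, with a median of 0.13, and 3 of the former and 2 of the latter had an unadjusted p under 0.05, beside 18.7% of all genes tested. Of these 5, Nkx3-2 and Runx2 were not measured in full, which left 1 higher and 2 lower of 11 genes so measured, beside 12.6%. Sox5, which acts beside Sox9 on cartilage genes, had ratios of -0.86, -0.53, -1.15 and -1.07. It was lower on all 4 arrays, with a mean of -0.90 ± 0.28 (SD, n = 4) and an adjusted p of 0.112 in limma. With normexp correction the Sox5 mean was -0.81 after loess and -0.28 after median centring, where all genes measured in full had a median of 0.26. The direction of Sox5 was opposite to that of Sox9 on arrays 1, 2 and 3. Bmpr1b, a receptor of bone morphogenetic proteins, had a mean of -0.74 ± 0.58 (adjusted p 0.228). Its other probe, well above background in the control channel of only 2 arrays, gave -0.26. With normexp correction the Bmpr1b mean was -0.30 after loess and -0.35 after median centring. Trps1, a repressor active in growth plate cartilage, had 0.37 ± 0.13 (adjusted p 0.207), while its other 2 probes gave -0.22 and 0.04.

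Among 19 genes of chondroitin sulfate synthesis, 13 were higher and 6 lower, with a median of 0.11, and 2 of the higher ones and 0 of the lower ones had an unadjusted p under 0.05, beside the same 18.7%. One of these, Chsy3, was at background with both dyes on all 4 arrays, which left 1 of the 17 genes measured in full, beside 12.6%. Csgalnact2, which starts the chondroitin chain, had a mean of 0.42 ± 0.27 (SD, n = 4; adjusted p 0.241). Of 7 genes of cartilage turnover, 3 were higher and 4 lower, and the 1 with an unadjusted p under 0.05, Mmp3, a protease that cleaves matrix proteins, had 0.42 ± 0.31 (SD, n = 4; adjusted p 0.254).

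The tissue label was checked with marker lists of the cells that the dissection could hold. All 9 bone, 6 tendon and ligament and 8 skeletal muscle markers with a ratio were measured in full, as were 5 of 10 inner ear, 8 of 9 neuron, 4 of 7 cerebellum and 7 of 7 erythroid markers. The median ratio on arrays 1 to 4 was -0.46, 0.21, 0.15 and 0.63 for bone and -0.31, 0.12, 0.29 and 1.23 for tendon and ligament. It was -0.85, -0.63, 0.73 and 0.74 for skeletal muscle, -2.40, -1.83, -0.49 and 0.50 for neurons and -3.24, -3.36, -0.33 and 0.23 for cerebellum. For erythroid cells it was -0.77, 0.27, 0.44 and 0.18. The bone, tendon, erythroid and inner ear lists were, like the median of the cartilage genes, below 0 on array 1 and above 0 on the others. The summed signal of the bone markers ranged from 60097 to 103678 in the DEP channel and from 73594 to 134567 in the control channel, and that of the cartilage genes from 16816 to 29192 and from 15029 to 27241. The part of tissue makeup in the cartilage ratios was not tested. Across all probes, not themselves replicates, Pearson's r of the ratios of arrays 1 and 4 was -0.22, and that of arrays 1 and 2 was 0.61.

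**Figure D4:**
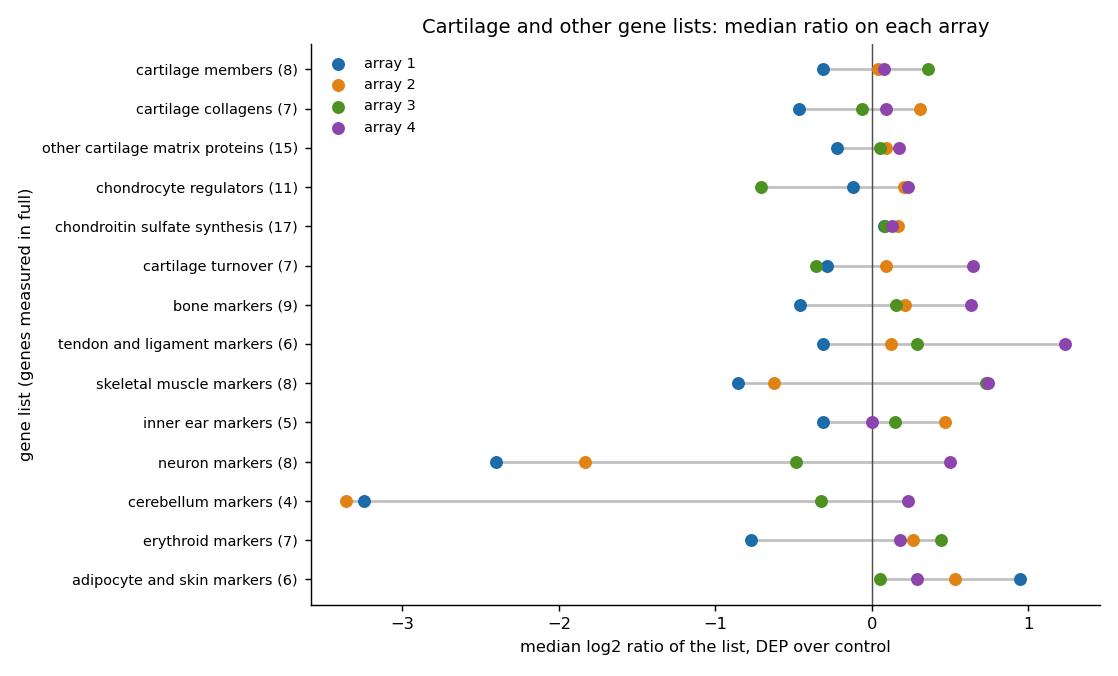
Median log2 ratio of the DEP over the control channel on each of the 4 arrays (points) for the cartilage genes and 13 other gene lists, with the number of genes measured in full in parentheses. The cartilage genes range from -0.31 to 0.36 and the cerebellum markers from -3.36 to 0.23.

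Outside these lists, the genes with a symbol whose normalized log2 signals ran most like the mean of the 8 cartilage genes were Zfp78, Ddx52, Rpl7a, Neu2, Atp10a, Col8a1, Antxrl, Bud23, 3930402G23Rik and E030030I06Rik, with Pearson's r between 0.83 and 0.94 over the 8 extracts among 18347 genes, where 4 targets without a symbol ranked among them. The r of the 8 cartilage genes with their own mean was lower, from 0.09 for Epyc to 0.71 for Chad.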

How the data were processed

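Total RNA was measured on 4 two-colour arrays of 1 slide, scanned once, so no batch could be compared. The authors quantified the spots with Agilent Feature Extraction 10.10.1.1. The deposited processed intensity is background-subtracted and dye-normalized within the array, and the deposited log10 ratio sets Cy5 over Cy3. The labels list both treatments under Cy5, so the source names of the channels were followed. A deposited table of the same log10 ratios, rounded, was an alternative, and 0 columns were left without a sample.

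The log10 ratios were put on the log2 scale. Control spots, outlier-flagged spots (164 to 274 per array) and spots without a ratio (6179 to 8558 of 43020) were left out, spots of a probe were averaged, and probes with ratios on fewer than 3 arrays were dropped. No spot of the cartilage genes was flagged or saturated. Between 59.3% and 69.0% of probes were well above background in a channel. The files hold no gene names, so accessions were matched to RefSeq (GRCm38.p6), which named 27655 of 39429 probes; the brightest probe stood for a gene. An intercept was fitted per probe in limma 3.58.1 (R 4.3.3) (lmFit, then eBayes, whose prior degrees of freedom were 1.98), two-sided, with Benjamini-Hochberg adjustment over 31577 probes, and was tested on simulated data. Normalization between arrays for the signals used Aquantile. An exact sign-flip test of 4 ratios cannot go below 0.125 and was not used for calls. Lower bounds of a fold were planned for probes at background in 1 channel on every array, and no cartilage gene was such; ratios of Matn1 and Matn3 on arrays where a channel was at background are not measured sizes.

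Alternatives were normexp (offset 50) with loess or median centring, the deposited table, both channels above background, flagged spots kept, an intensity trend, the mean of a gene's probes, and each array left out. The other alternatives, chosen after seeing the data, were folds only where both channels were measured and list medians without array 1. Named were the 10 genes, the genes of the related lists measured in full with an unadjusted p under 0.05 (or else the 3 with the largest mean ratio), and the 10 most alike outside the lists. Other list genes named, such as the skin and adipocyte genes, Col2a1, Slc26a2, Xylt2, B3galt6 and Chsy3, those with a stray array and those called under an alternative, were chosen after their values were seen. The members and lists were chosen with earlier results of these data known. Python 3.11.15 was used for tables and promoters with pandas 2.3.3, and for plots with matplotlib 3.10.9.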

Additional observations from a re-analysis of the deposited data

Results flagged for a closer look

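In 4 of 65 genes of cartilage lists measured in full, 1 array lay far from the other 3, and chance alone gives about 1 in 20. Epyc had a log2 ratio of -0.53 on array 1, while arrays 2 to 4 gave 0.43 to 0.61. Cilp, a protein of the cartilage intermediate layer, had -0.022 on array 1, against 0.42 to 0.46 on arrays 2 to 4. Pthlh, the hormone-related peptide that holds chondrocytes back from hypertrophy, had -0.73 on array 3 and between 0.32 and 0.39 elsewhere. Dcn, the small proteoglycan decorin, had 0.72 on array 4 and between -0.11 and -0.03 elsewhere.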

How the results depend on the processing

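The number of cartilage genes past 2-fold was 1 (6.74% of all genes). It was 0 after normexp followed by loess (1.38% of all genes there), 0 after normexp followed by median centring (1.86%), 0 when both channels had to be above background (3.15%) and 0 when folds were counted only where both were measured, an alternative chosen after seeing the data. With 1 array left out it was between 1 and 2 (5.92% to 10.2% of all genes). The number with an unadjusted p under 0.05 was 1 (18.7% of all genes), and 2 after normexp followed by loess (15.6% of all genes there), 5 after normexp followed by median centring (39.5%), 0 with both channels above background (15.5%), 3 with an intensity trend (19.0%) and between 1 and 2 with 1 array left out (11.2% to 18.8%). The number with an adjusted p under 0.05 was 0, and 1 with normexp and median centring (Chad, mean 0.73, adjusted p 0.0431), where 11.0% of all genes had one. The median over the 10 genes was 0.31, and between 0.11 (without array 3) and 0.30 with 1 array left out. It was 0.17 after normexp followed by loess and 0.30 after normexp followed by median centring. Normexp and median centring turned Acan to 0.073 and Comp to 0.088. That setting also raised Ucma to 0.51, Epyc to 0.55, Cytl1 to 0.77 and Sox9 to 0.69, beside a median of 0.26 for all genes measured in full. Of the genes whose sign turned when 1 array was left out, Hapln1 ranged from -0.21 to 0.16 (without array 1), Ucma from -0.048 (without array 2) to 0.26 and Matn1 from -0.13 (without array 3) to 1.08. The median of the collagens measured in full was -0.03, and 0.09 without array 1, chosen after seeing the data. The cause of these shifts was not tested. Of 108 values of single genes under alternatives, 102 kept direction and side of the threshold, which says little, since 0 genes passed it to begin with and the size could still move, as for Matn3 from 1.27 to 0.090. Depth is set by signal over background, which limits Matn1 and Matn3, and the 4 arrays of 1 dye orientation limit the rest. Each ratio already pairs the 2 channels of an array, and the labels give no further pairing to fit.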
